A study of Mus musculus with 10 samples.

Results

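The genes described here are 10 markers of testicular macrophages, namely Csf1r, Cx3cr1, Mrc1, Cd163, Adgre1, Cd68, Lyz2, C1qa, C1qb and F13a1. They were chosen by name, as 10 of the 28125 genes of the scRNA-seq matrix and of the 30670 genes of the scATAC-seq matrix, and all 10 are present in both. Their values were read in 13 cell populations that the authors named from marker genes. The populations are 9 of control germ cells, spermatogonia from the library labelled Nfya-CKO (Nfya-CKO-labelled SpG), Sertoli cells, other somatic cells and a small population left unnamed (called unknown below). Other somatic cells is the authors' name, and RNA of Sertoli genes was present in that population too. The germ cell populations are undifferentiated and differentiating spermatogonia (SpG), preleptotene (pL) spermatocytes, those of eL/L/Z (early leptotene to zygotene), the later L/Z/eP ones (up to early pachytene), pachytene (mP/lP) and diplotene (D) ones, and round (RS) and elongating (ES) spermatids.

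Nuclei came from testes of C57BL/6J mice, wild-type at 11, 17 and 25 dpp and, at 8 weeks, Cre/+ and Nfya-CKO. Both 8-week groups carry Cre inserted at Stra8, a gene switched on in germ cells about to enter meiosis, and the Nfya-CKO mice carry floxed Nfya besides. The assay reads RNA and accessible chromatin together, but the numbers of nuclei kept for each differ, as with 5883 for RNA and 1942 for chromatin in other somatic cells. Every condition has a single library per assay, so no difference below has a replicate check and no p-value was computed. Each matrix column pools the nuclei of a population over all libraries, so a genotype can be seen only where a population came from 1 library. Even there, age and library go with the genotype. This holds for Nfya-CKO-labelled SpG, which are compared below with control SpG pooled over libraries.

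Macrophages are resident immune cells that engulf dying cells and debris. In the testis they lie in the interstitium beside Leydig cells, which make testosterone, and along the wall of the seminiferous tubules. They depend on CSF1R and its ligands CSF1 and IL-34. Before nuclei were prepared, the study squeezed testes into collagenase, washed the tubules and passed the cells through strainers, steps in which interstitial cells can be lost.

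Depth set the limits of what could be seen. Libraries held 3746 to 18039 scRNA-seq nuclei, with medians of 1446.5 to 7603 UMIs, and 14920 to 97798 scATAC-seq nuclei. The number that identifies a nucleus occurred in over 1 library for 12.7% of the scRNA-seq numbers. Transcripts of Nfya were not lower in Nfya-CKO-labelled SpG (1.11 UMIs per 10000) than in control undifferentiated (0.456) or differentiating (0.667) ones, so that library is called by its label here. Cre removes part of Nfya only, and counts over the whole gene need not show it. Of the 5883 nuclei of other somatic cells, 4633 came from this library (78.8%, exact Clopper-Pearson 95% interval 77.7 to 79.8%, counting error only) and 341 from Cre/+. The genotype, the age, the library and the kind of somatic cell cannot be told apart in this column. Of their 6 clusters, 4 were at least 98.7% from this library, and the clusters of 877 and 741 nuclei were mixed (8.78% and 43.0%). Other somatic cells had a median of 1525 UMIs, and 1 UMI in 1 nucleus of that depth adds 0.00111 to the column. The unknown population had 99 nuclei and a median of 4736 UMIs. There 1 such UMI adds 0.0213, and 35.0% of all genes were listed at 0.

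RNA of the 10 genes was low in every population. Their summed level was 2.07 UMIs per 10000 in other somatic cells and 2.24 in the unknown population. It was 0.489 to 1.35 in control germ cells, 1.13 in Sertoli cells and 1.14 in Nfya-CKO-labelled SpG. A single gene, Cx3cr1, made up much of each sum. Without it the sum was 1.42 in other somatic cells, 0.925 in the unknown population, 0.386 in Sertoli cells and 0.654 in Nfya-CKO-labelled SpG. Control germ cells then ran from 0.119 in pL to 0.654 in ES. A pooled mean does not show whether many nuclei hold little of an RNA or few hold much. For comparison, other somatic cells held 177 UMIs per 10000 of the Leydig cell hormone Insl3 and 31.2 of the steroid enzyme Cyp17a1.

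**Figure D1:**
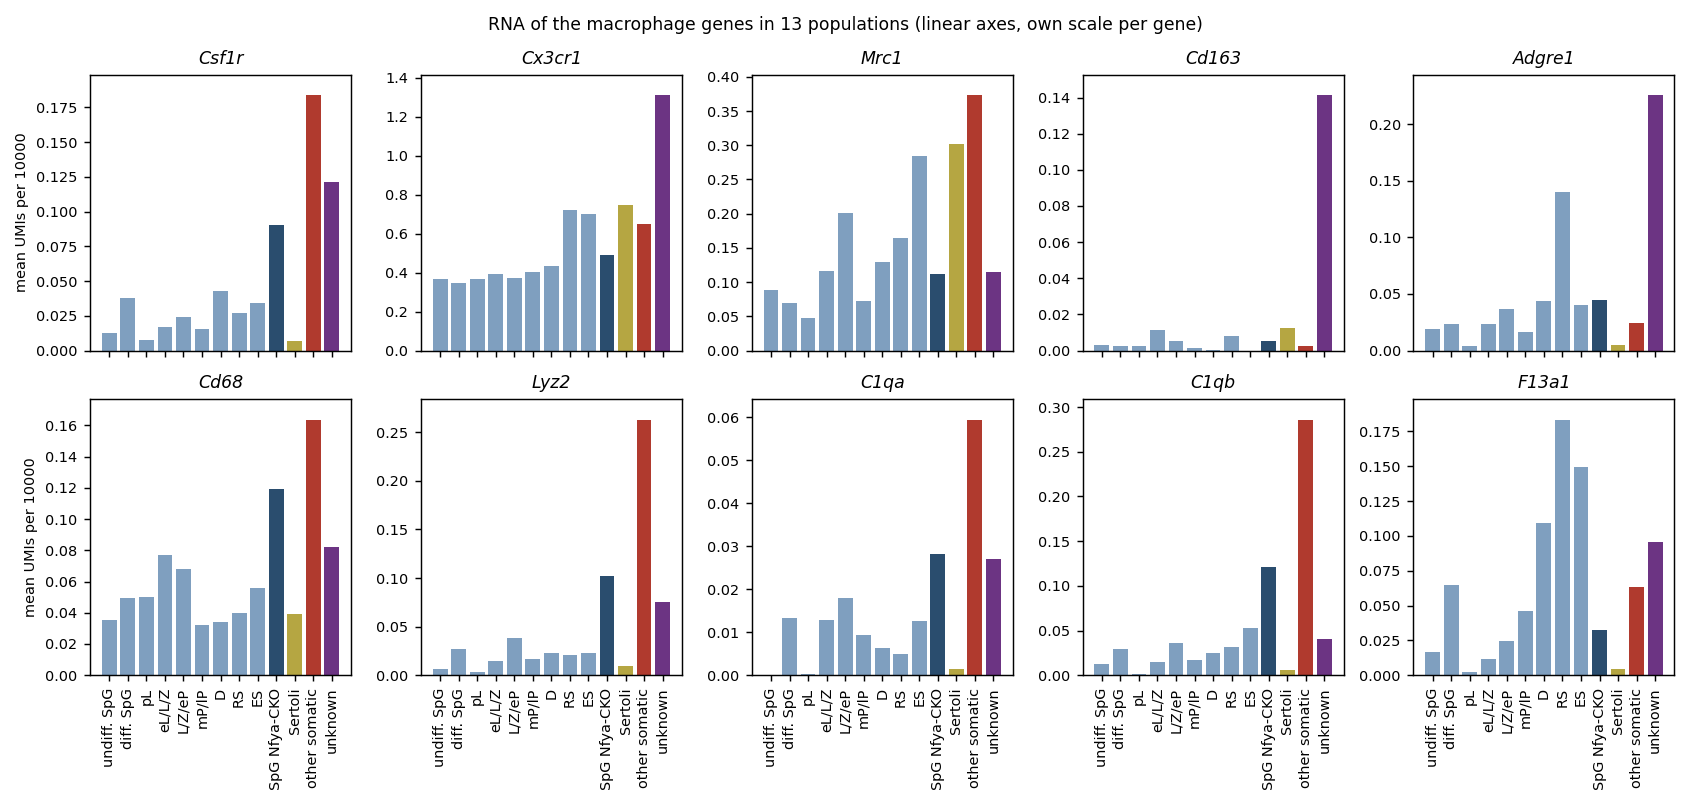
RNA of each macrophage gene in the 13 populations, in mean UMIs per 10000 on a linear axis with its own scale per gene, 1 bar per population with no replicate error. Light blue marks control germ cells, dark blue Nfya-CKO-labelled SpG, yellow Sertoli cells, red other somatic cells and purple the unknown population. Csf1r, Mrc1, Cd68, Lyz2, C1qa and C1qb peak in other somatic cells, Cx3cr1, Cd163 and Adgre1 in the unknown population, and F13a1 in round spermatids.

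Counts across all genes were made for those with a mean of at least 0.05 UMIs per 10000 over the 13 populations, as a ratio of at least 2 after adding 0.1 to both values. Of the 10 members, 5 reached this limit (Cx3cr1, Mrc1, Cd68, C1qb and F13a1). C1qb did so at 0.0519 only through its value in other somatic cells, and its mean over the other 12 populations was 0.0324. In other somatic cells, 2 members were at least 2-fold above the median of the 9 germ cell populations (Mrc1 and C1qb), against 12.9% of 15250 genes. With the limit set on the other 12 populations, chosen after the data were seen, Mrc1 alone was called, against 12.4% of genes. Csf1r and Lyz2 reached the same ratio but lay under the limit. In the unknown population 1 member did so (Cx3cr1), against 14.7% of genes, and Cd163 and Adgre1 did so under the limit. Against Sertoli cells, C1qb alone was called in other somatic cells, where 15.4% of genes were. It passed the limit through its own high value here, and with the limit on the other 12 populations no member was called (14.9% of genes were). Csf1r and Lyz2 reached the ratio under the limit. No tested member was lower by 2-fold in other somatic cells than in germ cells (5.04% of genes were) or Sertoli cells (5.98%), nor in the unknown population than in germ cells (12.6%). With 5 members in the tested set, these shares cannot be set apart from the background.

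**Figure D2:**
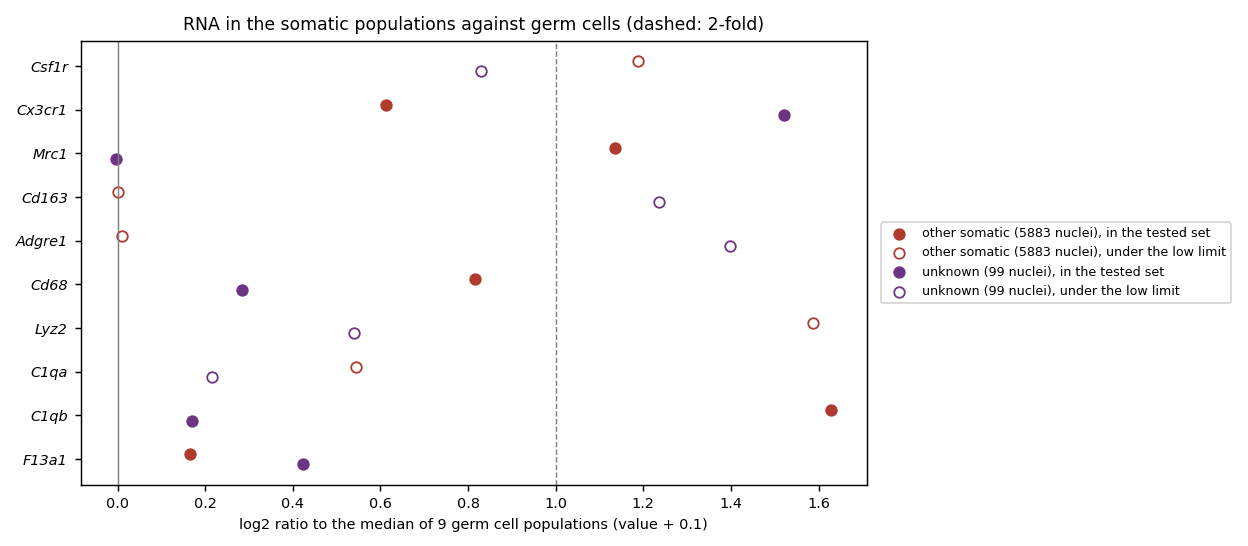
Log2 ratio of RNA (value plus 0.1) to the median of the 9 control germ cell populations for each macrophage gene, in other somatic cells (red) and in the unknown population (purple). Filled points are genes in the tested set, open points genes under the limit on low values, and the dashed line marks 2-fold. Other somatic cells pass it at Csf1r, Mrc1, Lyz2 and C1qb, the unknown population at Cx3cr1, Cd163 and Adgre1.

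The receptors come first. Csf1r, the receptor for CSF1 and IL-34 and the gene that most defines the lineage, lies on chromosome 18, and in GENCODE M21 it overlaps Hmgxb3 on the other strand. Its level was 0.184 UMIs per 10000 in other somatic cells, which is what 165 UMIs would give in nuclei of median depth. It was 0.121 in the unknown population, 0.0900 in Nfya-CKO-labelled SpG and 0.00692 in Sertoli cells. Germ cells ranged from 0.00779 in pL to 0.0429 in D. Other somatic cells therefore stood above every germ cell population, and Sertoli cells below all of them.

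Cx3cr1, the receptor of the chemokine CX3CL1 (fractalkine), was the most abundant member in all 13 populations. Its level was 0.345 to 0.436 from spermatogonia to D, 0.723 in RS, 0.70 in ES, 0.745 in Sertoli cells, 0.652 in other somatic cells and 1.31 in the unknown population. Other somatic cells were thus no higher than Sertoli cells or spermatids. In GENCODE M21 its model (chr9:119901616-120069879, minus strand, GRCm38) spans 168264 bases and overlaps 5 other protein-coding genes, among them Csrnp1 on the same strand, which had 1.11 UMIs per 10000 in the unknown population. How reads were divided among them is not given in the sources used here, so these values are uncertain.

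Mrc1 (chr2:14229392-14332057, plus strand), the mannose receptor, had 0.373 UMIs per 10000 in other somatic cells and 0.302 in Sertoli cells. ES followed with 0.285 and L/Z/eP with 0.201, and the lowest germ cell value was 0.0476 in pL. The unknown population, at 0.115, equalled the germ cell median of 0.116. The ratio to the germ cell median was 2.20 in other somatic cells, and against Sertoli cells it was 1.18.

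Cd163 (chr6:124304656-124330527, plus strand) encodes the scavenger receptor for haemoglobin bound to haptoglobin. Its RNA was nearly absent outside the unknown population, where it was 0.141 UMIs per 10000. Germ cells had 0 to 0.0112, Nfya-CKO-labelled SpG 0.00537, Sertoli cells 0.0123 and other somatic cells 0.00259. In D spermatocytes the value came from 2 UMIs in 2 of 4145 nuclei, and in differentiating SpG from 1 UMI. Other somatic cells had 71.0 times as much Csf1r as Cd163.

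Adgre1 (chr17:57358691-57483527, plus strand), an adhesion G protein-coupled receptor whose protein is the classical mouse macrophage antigen, was highest in the unknown population (0.226) and next in RS (0.140). The other germ cells had 0.00435 to 0.0437, and other somatic cells, with 0.0245, lay at the germ cell median of 0.0235.

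The genes of the lysosome and of complement followed another order. Cd68 (chr11:69664213-69666153, minus strand), a lysosomal membrane glycoprotein, had 0.164 UMIs per 10000 in other somatic cells, 0.119 in Nfya-CKO-labelled SpG, 0.0823 in the unknown population and 0.0390 in Sertoli cells. Germ cells had 0.0322 to 0.0771, so the ratio of other somatic cells to their median was 1.76 and the gene was not called.

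Lyz2 (chr10:117277331-117282321, minus strand), the lysozyme of myeloid cells, had 0.263 in other somatic cells, 0.102 in Nfya-CKO-labelled SpG, 0.0756 in the unknown population, 0.00985 in Sertoli cells and 0.00312 to 0.0387 in germ cells. Its paralog and neighbour Lyz1 had 0.00211 in other somatic cells and was listed at 0 in the unknown population. Both genes are similar in sequence, and since the authors kept unique alignments only, reads that match both equally are not counted.

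C1qa and C1qb encode chains of complement C1q, which tags debris for uptake, and lie on both sides of C1qc (C1qa chr4:136895917-136898803, C1qb chr4:136880129-136886187, both minus strand). C1qb had 0.286 UMIs per 10000 in other somatic cells, 0.121 in Nfya-CKO-labelled SpG, 0.0405 in the unknown population and 0.00559 in Sertoli cells, and germ cells had 0.00141 to 0.0532. C1qa was lower throughout, with 0.0594, 0.0281, 0.0270 and 0.00147 in the same order, 0.0179 at most in germ cells and 0 in undifferentiated SpG. C1qc, the neighbour between them, had 0.150 in other somatic cells and 0.175 in the unknown population.

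F13a1 (chr13:36867178-37050244, minus strand), the A subunit of coagulation factor XIII, was highest in germ cells, at 0.183 in RS, 0.150 in ES and 0.110 in D. The unknown population had 0.0956 and other somatic cells 0.0634, so neither stood out. The lowest values were 0.00215 in pL and 0.00451 in Sertoli cells.

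Lyz2, C1qa, C1qb, Csf1r and Cd68 varied together over all populations. Over the 13 populations, Pearson's r of the log values was 0.977 for Lyz2 with C1qb, 0.966 for Lyz2 with C1qa and 0.938 for Csf1r with Lyz2. These populations share libraries. Without other somatic cells and Nfya-CKO-labelled SpG, 11 populations remained, and r was 0.665 for Lyz2 with C1qb, 0.908 for Lyz2 with C1qa and 0.932 for Csf1r with Lyz2. For Cd68 with C1qb it went from 0.902 to 0.389, for Csf1r with Cd68 from 0.863 to 0.541 and for Csf1r with C1qb from 0.875 to 0.590. Over all 13 populations, the genes most like the summed members, a sum with much Cx3cr1, were Gdpd3 (r = 0.951), Ccdc28b (0.942) and Map2k3 (0.937). They were followed by Gda, Vwa1, BC029722, Il34, Adcy2, Mfsd3 and Nt5c3b with 0.922 to 0.907. None is a member and 1, Il34, is a ligand of CSF1R.

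Promoters of 7 members are in the RefSeq set for GRCm38.p6, which gives 250 bases before and 50 after each start (8 promoters, as F13a1 has 2). Promoters of C1qa, Csf1r and Adgre1 are not shown. 2 motifs were searched on both strands, GAGGAA, a core bound by the myeloid factor PU.1, and CCAAT, the box bound by NF-Y. GAGGAA or its complement was in promoters of 4 of the 7 members (Mrc1, Cd68, C1qb and F13a1) and in 28.3% of 32851 promoters. CCAAT or its complement was in those of 5 (Cx3cr1, Mrc1, Cd163, Cd68 and F13a1) and in 37.4% of all. The promoters shown are of C1qb and Lyz2, the pair with the most alike RNA, and of Cd163, whose RNA was unlike both (r = -0.06 with C1qb and 0.12 with Lyz2). Capitals mark these motifs and their complements, and no match overlaps another.
C1qb promoter: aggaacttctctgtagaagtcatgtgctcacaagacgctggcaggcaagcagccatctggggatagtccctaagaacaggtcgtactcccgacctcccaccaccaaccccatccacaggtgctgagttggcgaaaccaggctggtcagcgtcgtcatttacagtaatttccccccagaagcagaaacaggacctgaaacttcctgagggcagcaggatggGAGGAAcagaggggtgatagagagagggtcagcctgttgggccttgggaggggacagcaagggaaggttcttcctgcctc
Lyz2 promoter: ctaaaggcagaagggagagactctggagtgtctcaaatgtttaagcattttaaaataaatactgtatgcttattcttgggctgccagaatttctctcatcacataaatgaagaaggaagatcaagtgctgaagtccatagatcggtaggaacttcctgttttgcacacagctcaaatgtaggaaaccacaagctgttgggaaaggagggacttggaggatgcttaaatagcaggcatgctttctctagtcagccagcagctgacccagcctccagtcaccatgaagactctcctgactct
Cd163 promoter: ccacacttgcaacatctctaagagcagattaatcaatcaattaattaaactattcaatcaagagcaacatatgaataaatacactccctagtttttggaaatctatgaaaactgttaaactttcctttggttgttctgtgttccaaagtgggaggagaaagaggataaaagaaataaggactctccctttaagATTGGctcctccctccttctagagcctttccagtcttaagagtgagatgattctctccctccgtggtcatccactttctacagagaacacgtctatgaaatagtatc
They lie at chr4:136886151-136886450 (minus strand), chr10:117282223-117282522 (minus strand) and chr6:124304401-124304700 (plus strand), in the order shown and 5′ to 3′. Neither motif is in the window of Lyz2, C1qb has 1 GAGGAA and Cd163 has 1 CCAAT. These are matches of letters only.

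The small size of the unknown population allowed its values to be traced to nuclei. Each value is a mean over nuclei of UMIs per 10000, the UMI total of every nucleus is in the deposited table, and the 99 totals all differ. A value of few UMIs can therefore be searched for as a sum of whole numbers over these totals. This was done after the values had been seen, with a relative tolerance of 2e-14, up to 4 nuclei and up to 15 UMIs in each. The search began at 1 nucleus and stopped at the first number of nuclei that gave a match. A value was resolved if exactly 1 sum matched there, and sums over more nuclei were not searched. Of the 18268 genes above 0 in this population, 2235 equalled exactly 1 UMI in 1 nucleus.

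Most of the member transcripts that could be traced came from 1 nucleus. It belongs to the library labelled Nfya-CKO and had 7486 UMIs over 2449 genes, 1.24% of them mitochondrial. The 6 members that could be resolved had 40 UMIs in all, and 35 lay in this nucleus. It held 10 of 12 UMIs of Cd163, all 9 of Csf1r, 6 of 7 of F13a1, 5 of 7 of Lyz2, all 3 of C1qb and both of C1qa. Within it, Cd163 came to 13.4 UMIs per 10000, Csf1r to 12, F13a1 to 8.01 and Lyz2 to 6.68.

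The other UMIs were 2 of Cd163 in a Cre/+ nucleus of 31176 UMIs, 2 of Lyz2 in a further nucleus of the library labelled Nfya-CKO with 24783, and 1 of F13a1 in a 25 dpp nucleus of 6911. Without the single nucleus, Cd163 went from 0.141 to 0.00655 UMIs per 10000, Lyz2 from 0.0756 to 0.00823 and F13a1 from 0.0956 to 0.0148, and Csf1r, C1qa and C1qb were at 0. The ratio of Cd163 to the germ cell median went from 2.35 to 1.04. Cx3cr1, Mrc1, Adgre1 and Cd68 could not be resolved within these limits. The high value of Cx3cr1 and Adgre1 in this population is thus not traced to nuclei.

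Of the 45 further macrophage genes, 13 could be resolved in the unknown population, 15 could not and 17 were listed at 0. The same nucleus held all 13 UMIs of C1qc, all 5 of Ms4a7, a membrane protein of resident macrophages, the only 1 of the Fc receptor gene Fcgr3, 8 of 11 of Cbr2, a marker of resident macrophages, and 4 of 10 of Laptm5, a lysosomal protein of blood cells. It held none of the UMIs of Mpeg1, a pore-forming protein of phagocytes, H2-Aa, Irf8 or Ctss.

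In all, 56 genes with 121 UMIs were found in this nucleus only. Besides C1qc, Csf1r and Ms4a7 these included, named after their values were seen, P2ry12 with 3 UMIs, a purine receptor of tissue macrophages, Cd33 and Was with 3 each, and Tnf with 2. The others were of mixed kinds, among them Alyref2 with 13 UMIs, as many as C1qc, Cntf with 4, Hspb8 with 3 and 6 olfactory receptor genes from Olfr311 to Olfr316 with 1 each. The nucleus was also in the scATAC-seq table, with 34994 fragments, where it was annotated as a Sertoli cell. It was not tested whether it was 1 cell or a doublet.

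**Figure D3:**
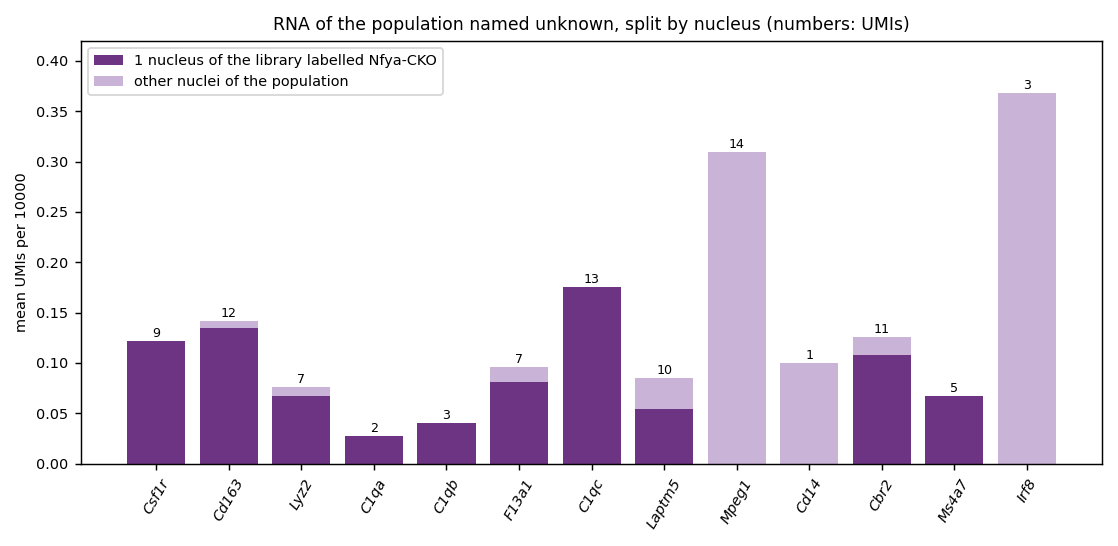
RNA of resolved genes in the unknown population, in mean UMIs per 10000 over its 99 nuclei. Dark purple is the part from 1 nucleus of the library labelled Nfya-CKO, light purple the part from all other nuclei, and the number above each bar is the UMI count. All of Csf1r, C1qa, C1qb, C1qc and Ms4a7 is dark, and all of Mpeg1, Cd14 and Irf8 is light.

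A mean of per-nucleus shares gives much weight to a UMI in a shallow nucleus. The value of Cd14 in the unknown population, 0.10, was 1 UMI in a Cre/+ nucleus with 1010 UMIs. That of Irf8, 0.368, was 3 UMIs in 2 nuclei with 601 and 3150 UMIs. The value of Cd14 thus lies near that of Csf1r (0.121), which came from 9 UMIs.

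Among the 6 resolved members, the nucleus held 10 UMIs of Cd163, 9 of Csf1r and 3 of C1qb. In other somatic cells C1qb (0.286) was above Csf1r (0.184), and Cd163 (0.00259) was the lowest of the 10. The place of the 4 unresolved members in the nucleus is not known.

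Several leukocyte genes were listed at 0 in the unknown population. Ptprc, the pan-leukocyte phosphatase, Tyrobp, a signalling adaptor, Spi1, which encodes PU.1, and Cebpa, Trem2, Cybb, Lyve1, Folr2 and Ciita were among the 17 of the 45 wider genes at 0. Since 1 UMI in a nucleus of median depth adds 0.0213, which is above the germ cell median of each of the genes just named, a 0 of these does not show absence. For Ly86, also at 0, the germ cell median was 0.0417. Other genes of the list had values above 0, such as Aif1 (0.611), Mpeg1 (0.310), Runx1 (0.172), Cebpb (0.158) and Laptm5 (0.0853). Of the 14 UMIs of Mpeg1, 4 lay in a nucleus of 1533 UMIs, and without it the value was 0.0466, against a germ cell median of 0.0536. Genes of endothelial cells were high. Esam had 8.53 UMIs per 10000, Flt1 7.49 and Cdh5 7.26, and all 10 endothelial genes listed were at least 2-fold above germ cells. Other members of the wider list shared that pattern. Csf2rb, a receptor subunit, had 1.17 in the unknown population and 0.0262 in other somatic cells, and Stab1, a scavenger receptor that endothelium also makes, 0.654 and 0.0476. Mertk, a receptor for dying cells, had 1.63, but Sertoli cells, which also engulf them, had 1.71.

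Of the 45 genes of the wider macrophage list, 15 were at least 2-fold higher in other somatic cells than in germ cells at any level (33.3%, against 7.42% of all 28125 genes). The median log2 ratio over all 45 was 0.34, against -0.0036 for all genes. The 21 genes in the tested set, which hold the more abundant ones, had 14 calls (66.7%, against 12.9% of all genes tested) and a median of 1.69, against -0.06. The 24 others lay mostly near the germ cell level, with ratios of 1.20 for Ptprc, 1.28 for Tyrobp and 1.09 for Spi1. Other lists were higher over their tested genes, with medians of 4.09 for 10 Leydig genes, 4.14 for 6 genes of stroma and 2.09 for 13 Sertoli genes. Peritubular muscle genes had a median of 2.63, endothelial genes 0.31, and germ cell genes 0.06. Of 4 tested lymphocyte genes 1 was called, Ms4a1 (0.279). Of the granulocyte and mast cell list 1 gene was tested, Kit (0.521), and it was not called. Of the 13 Sertoli genes 12 were called. Set against Sertoli cells, 2 of the 13 were at least 2-fold higher in other somatic cells (15.4% of genes were) and 7 were lower (5.98%). Whether Sertoli cells are among other somatic cells was not tested. In the unknown population the median over all 45 genes was 0.39, and 11 of the 21 tested genes were called (52.4%, against 14.7% of all genes tested), with a median of 1.04. Csf2rb and Stab1 are among these calls and passed the limit only through this population, their means over the other 12 being 0.00849 and 0.0238. With the limit on the other populations, 9 of 19 genes were called (47.4%), against 13.3% of all genes. Mpeg1 and Irf8 are among the calls too, and without the nucleus that gave most of its value each was near the germ cell level (ratios of 0.954 and 1.09). Other lists were higher there as well, with medians of 5.16 for endothelial, 2.0 for Leydig, 1.68 for peritubular muscle and 1.18 for Sertoli genes. Some of the genes on the wider list are also used by other cells of the testis.

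**Figure D4:**
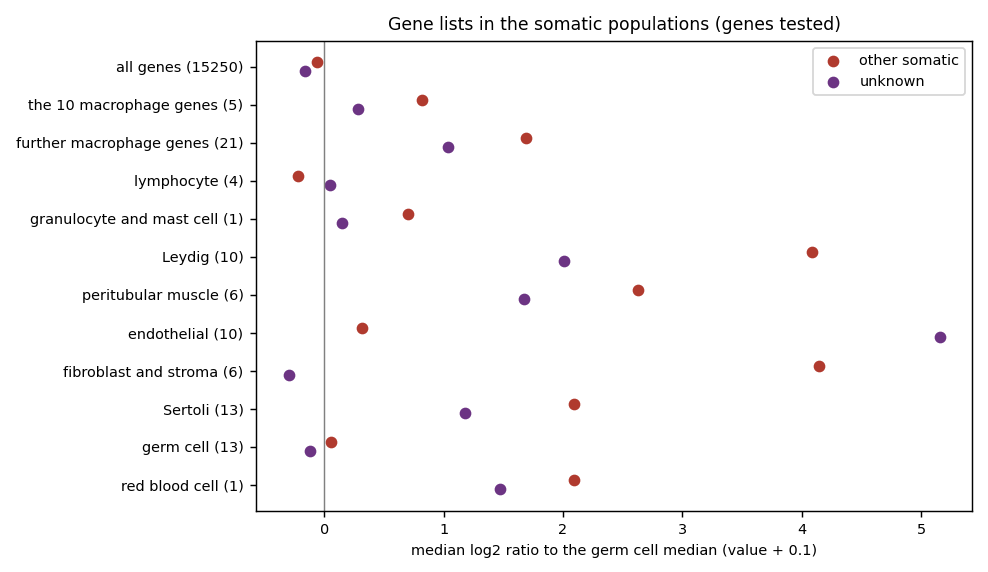
Median log2 ratio of RNA to the germ cell median (value plus 0.1) for each gene list, in other somatic cells (red) and in the unknown population (purple), with the number of genes tested in parentheses. Leydig and stroma genes lead in other somatic cells, at 4.09 and 4.14, and endothelial genes in the unknown population, at 5.16.

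By role, MHC class II was called for all 4 tested genes in other somatic cells, where 12.9% of all tested genes were. Cd74, the invariant chain, had 1.84 UMIs per 10000 and a ratio of 11.3 to the germ cell median. H2-Ab1 had 0.650, H2-Aa 0.393 and H2-Eb1 0.362, whereas Ciita, their regulator, had 0.00490. In the unknown population Cd74 alone was called, at 0.361.

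The ligands of the receptors among the members were present as well. Csf1 had 0.472 in other somatic cells and 0.747 in the unknown population, against 0.0526 in Sertoli cells and a germ cell median of 0.0122. Cx3cl1 had 0.199 and 0.548, and Il34 0.149 and 0.143, which was not called in either population.

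Among the transcription factors, Maf (0.675), Irf8 (0.340), Cebpb (0.227) and Cebpa (0.138) were called in other somatic cells, and Runx1 (0.0777) was not. Of all tested genes 12.9% were called. These calls are against the germ cell median. Control undifferentiated SpG were above other somatic cells for Cebpa (0.318) and Cebpb (0.295), and had 0.252 of Irf8. For Maf the highest germ cell value was 0.113, in ES. Spi1, the factor most tied to myeloid cells, was under the limit with 0.0234. Among Fc receptors and adaptors Fcer1g had 0.588 and was called, while Tyrobp had 0.0367 and Trem2 0.0218. Ptprc had 0.0371. Of the 11 genes for uptake and surface proteins of resident macrophages, 2 were tested, and Mertk (0.860) was called in other somatic cells. The member Mrc1 (0.373) was called as well. Lyve1 had 0.0135, Folr2 0.0665, Timd4 0.00533 and Siglec1 0.00602, and C-C chemokine receptor Ccr2, found on monocytes, had 0.00630. Aif1, which encodes a macrophage protein, had 5.12 in RS against 0.404 in other somatic cells.

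In Nfya-CKO-labelled SpG, of the 5 tested members none was at least 2-fold above control undifferentiated SpG, where 4.09% of genes were. C1qb had a ratio of 1.96 and Cd68 1.62, and among members under the limit Lyz2 had 1.90 and Csf1r 1.69. None of the tested members was 2-fold lower either, where 3.08% of genes were. Of the 21 tested genes of the wider macrophage list, 5 were called higher (23.8%) and 1 was 2-fold lower. Of the 10 Leydig genes, 8 were called higher. C1qa was listed at 0 in control undifferentiated SpG and at 0.0281 here. RNA of Leydig cells was present there too, with 39.8 UMIs per 10000 of Insl3. The 10 Leydig genes were at 0.163 to 0.286 of their level in other somatic cells. For the members this ratio was 0.298 for Mrc1, the lowest, 0.387 for Lyz2, 0.422 for C1qb, 0.472 for C1qa and 0.490 for Csf1r. It was 0.516 for F13a1, 0.727 for Cd68, 0.752 for Cx3cr1, 1.84 for Adgre1 and 2.07 for Cd163. All 10 members thus lay above the highest Leydig gene. The medians were 0.503 for the members, 0.247 for 13 Sertoli genes, 0.10 for peritubular muscle and 0.0964 for stroma. The highest gene of each of these other lists (0.473, 0.416 and 0.453) lay within the range of the members. These ratios keep the level that germ cells have without any somatic RNA, and genes differ in it. Control undifferentiated SpG had 0.368 of Cx3cr1, 0.0880 of Mrc1 and 0.0190 of Adgre1, against 0.652, 0.373 and 0.0245 in other somatic cells. For other members it was low, such as Lyz2 (0.00632 against 0.263), and for Insl3 the germ cell median was 0.174 against 177. The part of RNA from outside these nuclei, or of other cells among them, in the members' values was not tested.

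Chromatin did not follow the RNA. scATAC-seq values are given per 1000000, and which region the matrix counted for a gene is not stated. For its merged tracks the study took coverage in a short window around the start site, and whether that holds for the matrix is not given. Over the 13 populations, Spearman's rho between a member's RNA and scATAC-seq values ran from -0.51 for Cx3cr1 to 0.70 for F13a1, and 5 members had a positive and 5 a negative value. Since the populations share libraries and depth, this is a description only.

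In other somatic cells, 1 of the 6 members with signal in every population was at least 1.5-fold above the germ cell median (Cd68, 18.2 against 11.6), where 8.52% of 22440 genes were. At the same limit 4 of the 6 tested members were lower, among them Csf1r (1.71 against 4.02), close to the 53.4% of all tested genes that were lower. With the untested members, 8 of the 10 were lower, such as C1qa (1.27 against 2.76). Mitochondrial genes held 64.5% of the signal in this population, and scaling without them moved the median log2 ratio of all genes from -0.63 to -0.04. On that scale 19.4% of genes were higher and 18.9% lower, 1 tested member was higher and 1 lower.

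Cd68 had the highest signal of any member, up to 23.4 in pL, and its range over germ cells was 6.01 to 23.4. Mrc1 was highest in Nfya-CKO-labelled SpG (15.6 against 8.11 in control undifferentiated SpG), the single tested member called there, where 9.62% of genes were. Adgre1, C1qa and F13a1 reached the ratio too but have a value of 0 in the unknown population and were not tested. ES values, such as 10.9 for Csf1r and 13.1 for Mrc1, rest on 124 nuclei. No tested member was lower by 1.5-fold in Nfya-CKO-labelled SpG, where 9.16% of genes were. Cx3cr1, untested for the same reason, was lower by this limit (0.848 against 1.92).

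**Figure D5:**
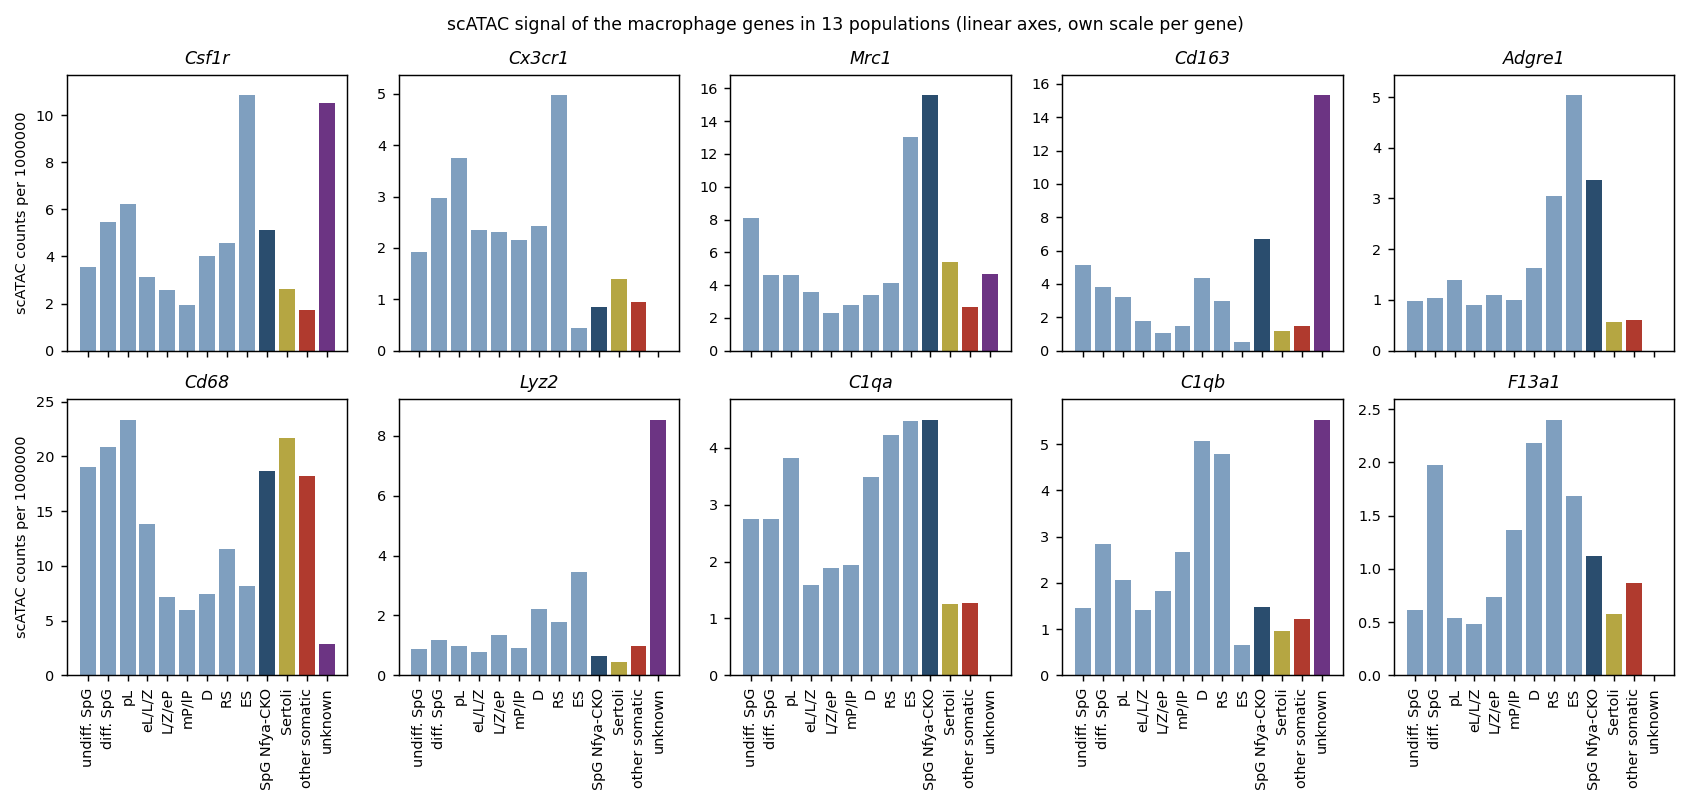
scATAC-seq signal of each macrophage gene in the 13 populations, in counts per 1000000 on a linear axis with its own scale per gene and the colours of the RNA plot, 1 bar per population with no replicate error. Cd163 and Lyz2 peak in the unknown population, at 15.3 and 8.55, where each is 1 count in 1 nucleus, and 4 genes have no bar there.

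In the unknown population 4 of the 6 tested members were at least 1.5-fold above germ cells, against 20.1% of genes, and these were Cd163 (15.3), Csf1r (10.5), Lyz2 (8.55) and C1qb (5.53). Of the tested members, Cd68 was lower by this limit (2.87), and 40.2% of genes were. Cx3cr1, Adgre1, C1qa and F13a1 were listed at 0, as were 24.8% of all genes. The repeated values of this column showed that it is a mean over 62 nuclei of whole counts per nucleus, although the cell table names 54, and gave 62 totals of 1014 to 47363 counts.

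Cd163 was 1 count in a nucleus with a total of 1052, and Lyz2 was 1 count in a nucleus with 1887. Csf1r was 5 counts in 4 nuclei, C1qb 4 in 3, Mrc1 2 in 2, and Cd68, with the lowest of the values above 0, 6 in 3. A 5.15-fold ratio of Cd163 and a 7.33-fold ratio of Lyz2 thus came from 1 count each, and 978 of the 4512 genes called in this comparison (21.7%) also were 1 count in 1 nucleus. Leaving out all such genes, 2 of the 4 tested members that remained (Csf1r and C1qb) and 19.2% of genes were called. Both rest on 1 nucleus too. A single count in a nucleus with a total of 1950 gave 8.27 of the 10.5 for Csf1r, and without that nucleus the value was 2.27, below the germ cell median of 4.02. Without the nucleus that gave most of its value, the ratio of C1qb was 1.32. With 0 to 6 counts per member, no difference in accessibility was detectable at this depth.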

How the data were processed

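RNA and open chromatin were measured with the BD Rhapsody system, and the deposited tables keep different numbers of nuclei for each. Per the labels and the study's methods, the authors aligned scRNA-seq reads with STAR (2.7.10b in the submitters' processing notes) and scATAC-seq reads with BWA (0.7.12) to mm10, filtered nuclei with Seurat 5.2.1 and ArchR 1.0.3, and removed doublets. The annotation used for counting is not given in the sources used here. The authors deposited, for each nucleus, its UMI or fragment count, the percent of mitochondrial UMIs and the TSS enrichment, a ratio of coverage at start sites to flanking windows. They also deposited a matrix per assay on a natural log scale, which held the log of 1 plus a mean that sums to 10000 per population.

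Values were turned back with exp(value) - 1, and scATAC-seq values scaled to a sum of 1000000, in Python 3.11.15 (scipy 1.17.1, numpy 2.4.6 and pandas 2.3.3 for the calculations, matplotlib 3.10.9 for the figures). RNA ratios used a pseudocount of 0.1 and a limit of 2-fold, over genes whose mean reached 0.05. scATAC-seq ratios used no pseudocount, genes above 0 in all 13 populations and a limit of 1.5-fold. Each condition is 1 library, so values were compared by size only. The calculations were tested on simulated data.

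The members and lists were chosen with earlier results of these data known. Genes named were the members, the wider macrophage list, the 3 highest of each other list in either population, Lyz1, C1qc and the 10 genes most like the summed members. Genes chosen after their values were seen are marked as such. Gene positions are those of GENCODE M21 for GRCm38, the build of mm10. In all, 38 alternatives were listed and 6 added after the data were seen, and those on the make-up by library were applied to both populations. No table column of another sample was found. Of the wider macrophage list, 1 gene is not reported by name here.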

Additional observations from a re-analysis of the deposited data

How the results depend on the processing

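No paired analysis was possible because each group is 1 library. With 1 pooled value per population no result has a replicate error, and a count of members called moves with each limit, as does the share of all genes called, given in parentheses. In other somatic cells against germ cells, the RNA count of 2 became 0 with a pseudocount of 0.5 (4.94%), 4 without the filter on low genes (7.42%), 4 at 1.5-fold (21.4%), 0 at 4-fold (3.65%), 1 against the highest germ cell population (2.90%) and 1 with the low limit set without the population compared (12.4%). Against Sertoli cells, the count of 1 became 3 with a pseudocount of 0.01 (31.7%), 0 with 0.5 (3.58%), 3 without the filter (8.67%), 3 at 1.5-fold (29.0%), 0 at 4-fold (3.77%) and 0 with the low limit set without the population compared (14.9%). In the unknown population the RNA count of 1 became 3 without the filter (8.88%), 0 at 4-fold (5.34%) and 0 against the highest germ cell population (5.2%). It could not be recomputed without the nucleus that held most resolved UMIs, since Cx3cr1, the member called, is unresolved. In Nfya-CKO-labelled SpG the count of 0 became 2 with a pseudocount of 0.01 (10.2%) and 2 at 1.5-fold (12.5%).

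For scATAC-seq, the count of 1 in other somatic cells became 0 at 2-fold (4.05%) and 0 against the highest germ cell population (0.918%), where the log2 ratio of Cd68 turned from 0.65 to -0.36. The count of 4 in the unknown population became 2 against the highest germ cell population (5.38%), where the log2 ratio of Csf1r turned from 1.38 to -0.047, and 2 without genes at 1 count in 1 nucleus (19.2%). In Nfya-CKO-labelled SpG the count of 1 became 2 when scaled without mitochondrial genes (13.7%), 0 at 2-fold (3.12%) and 3 at a limit under 1.5-fold (18.8%). Without mitochondrial genes, 13.7% of genes were higher and 5.09% lower in that comparison, against 9.62% and 9.16%, and in the unknown population 28.8% and 27.9%, against 20.1% and 40.2%. The share of other somatic nuclei from the library labelled Nfya-CKO was 69.0% among nuclei with at least 1000 genes, against 78.8%. In the other cases, 20 recomputed values kept a count within 1.5 times its value or a share within its interval. Ratios of single called genes stayed within 1.5-fold under 13 alternatives and moved by more, without turning, under 13. The causes were not tested, apart from the limits themselves. Depth limits all values in the unknown population, where a single UMI or count can give a level that reads as high.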
